A study of Mus musculus with 4 samples.

Results

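The integrins and laminins are 2 gene families that face each other across the cell surface, and 32 of the 32285 features in the matrices belong to them by symbol. The 32 genes are 21 integrin chains (12 alpha, 9 beta) and 11 laminin chains (5 alpha, 3 beta, 3 gamma). They were taken as every symbol made of Itga or Itgb plus a number, with an optional closing letter, or of Lama, Lamb or Lamc plus 1 digit. This leaves out the alpha integrins whose symbol carries a letter in place of a number (Itgav, Itgal, Itgam, Itgax, Itgae, Itgad), which are described apart.

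The genes were measured in 4 heart sections, 1 each from ICR mice harvested 1, 4, 7 and 14 days after a cryoinjury (called d1, d4, d7 and d14), in which a cooled probe was held on the left ventricular apex for 5 seconds at postnatal day 1. The animals were thus at postnatal days 2, 5, 8 and 15, every heart was injured, no genotype other than the ICR stock is labelled, and no uninjured section is among the groups. Fresh frozen tissue was cut at 10 µm and placed on a 10x Genomics Visium slide, on which barcoded spots capture the poly(A) RNA of the tissue above them and count each captured transcript by a unique molecular identifier (UMI). A spot is a small region that can hold several cells of different types. With 1 section at each time, differences between times have no replicate check, carry no p-value, and cannot be told apart from differences in age, animal, sex or place of the cut.

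Laminins are cross-shaped heterotrimers of an alpha, a beta and a gamma chain, and are the backbone of the basement membrane, the thin matrix sheet that surrounds each cardiomyocyte, each capillary and each smooth muscle cell. Integrins are heterodimers of an alpha and a beta chain that bind matrix outside the cell and link it, through talin, kindlin and the ILK complex, to actin inside. In the heart, Itgb1 is the common beta partner, Itga7 is the laminin-binding alpha chain of mature striated muscle, Itga5 binds fibronectin, Itga1 and Itga11 bind collagens, and the laminin alpha chains Lama2 of muscle and Lama4 of vessels hold the part of the trimer that cells bind.

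In total the 32 genes gave 42339 UMIs, 19694 from integrins and 22645 from laminins. At least 1 UMI was found in every section for 28 genes, and 29 had at least 20 UMIs over the 4 sections. The 3 with under 20 were Itgb2l (1 UMI), Lama1 (4 UMIs), the alpha chain of the early embryonic basement membrane, and Lamc3 (6 UMIs). These are not described further, and no level is read from so few UMIs.

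The results below turn on 4 genes whose promoters are shown here: the laminin beta chains Lamb1 and Lamb2, which exchanged order between d7 and d14, and the integrin chains Itgb5 and Itga11, which were high where collagen transcripts were high. Each sequence is the RefSeq promoter window (GRCm38.p6) from 250 bases before a transcript start to 50 bases after it, read 5′ to 3′; RefSeq starts need not be the GENCODE gene starts given at the end. The 4 genes were chosen for display after their values were seen. Capitals mark matches, on either strand, to the GC box (GGGCGG) or to the EGR motif (GCGNGGGCG), which are the motifs found in these 4 windows.
Lamb1, chr12:31265043-31265342, plus strand: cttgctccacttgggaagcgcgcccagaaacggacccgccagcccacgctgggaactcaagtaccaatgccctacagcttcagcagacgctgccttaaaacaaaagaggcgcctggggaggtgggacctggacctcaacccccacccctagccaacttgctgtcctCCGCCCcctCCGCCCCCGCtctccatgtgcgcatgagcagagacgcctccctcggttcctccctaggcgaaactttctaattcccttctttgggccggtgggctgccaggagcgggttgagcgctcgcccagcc
Lamb2, chr9:108479612-108479911, plus strand: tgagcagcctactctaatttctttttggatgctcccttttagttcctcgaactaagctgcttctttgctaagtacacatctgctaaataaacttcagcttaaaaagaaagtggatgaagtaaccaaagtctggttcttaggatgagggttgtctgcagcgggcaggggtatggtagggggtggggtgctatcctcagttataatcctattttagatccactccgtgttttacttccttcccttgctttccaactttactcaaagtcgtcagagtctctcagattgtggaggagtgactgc
Itgb5, chr16:33829415-33829714, plus strand: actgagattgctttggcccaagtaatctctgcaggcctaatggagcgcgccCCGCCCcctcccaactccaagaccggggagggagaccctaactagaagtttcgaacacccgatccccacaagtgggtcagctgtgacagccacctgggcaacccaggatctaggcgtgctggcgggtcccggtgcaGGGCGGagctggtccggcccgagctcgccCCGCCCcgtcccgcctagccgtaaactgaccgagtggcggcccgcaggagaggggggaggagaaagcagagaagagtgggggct
Itga11, chr9:62677605-62677904, plus strand: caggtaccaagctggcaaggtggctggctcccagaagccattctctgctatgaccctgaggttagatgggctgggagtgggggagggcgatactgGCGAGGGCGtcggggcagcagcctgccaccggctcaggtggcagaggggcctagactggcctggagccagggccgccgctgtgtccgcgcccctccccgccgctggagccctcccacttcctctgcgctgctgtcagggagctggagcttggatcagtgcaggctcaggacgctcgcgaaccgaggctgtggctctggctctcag
The Lamb1 window held 2 GC boxes and 1 EGR match, which overlaps a GC box, the Itgb5 window held 3 GC boxes, the Itga11 window held 1 EGR match, and the Lamb2 window held neither. Matches to AP-1 (TGANTCA), TEAD (CATTCC) and the TATA box (TATAAA) were searched as well and were in none of these 4. Of all 32851 promoter windows, 35.7% held a GC box, 5.55% an EGR match, 7.81% an AP-1 match, 14.7% a TEAD match and 13.6% a TATA box. The table held 24 windows for 21 of the 32 genes, of which 10 held a GC box, 2 an EGR match, 2 an AP-1 match, 3 a TEAD match and 0 a TATA box. A match of letters is a description and shows no binding.

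Levels are scaled counts (CPM), the UMIs of a gene for every 1e6 UMIs of the section or group of spots, without haemoglobin and mitochondrially encoded genes in the total. Each UMI marks 1 captured transcript irrespective of its length, so levels of genes are set side by side without dividing by length. The kept spots (at least 500 UMIs) numbered 445 for d1, 662 for d4, 774 for d7 and 1175 for d14, and the median UMIs per spot were 7810, 7998, 8028 and 3770. The d7 section was the only one with UMIs of the Y-linked gene Eif2s3y (460, with 1 of Xist), and its mitochondrially encoded share was 11.6% against 5.17% to 8.54% in the others. All 10 cardiomyocyte markers (such as Myh6 and Tnnt2) were detected in each section. A ratio is given with a 95% interval that covers counting error alone, and a gene is called higher or lower where its ratio is at least 2 or at most 0.5, the interval excludes 1, and the compared groups hold at least 20 UMIs. A run of 4 values with no day beside it is in the order d1, d4, d7, d14.

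Laminin transcripts were more abundant at each later time than at d1, and so were integrin transcripts, by less at d7 and d14. The 11 laminin genes together had 807, 1170, 1216 and 1494 CPM, so that the d14 total was 1.85-fold (1.77 to 1.94) the d1 total. The 21 integrin genes together had 826, 1156, 986 and 1112 CPM, with a d4 to d1 ratio of 1.40 (1.34 to 1.46). The sums are close to each other at d1, and by d14 the laminin sum stands above the integrin sum.

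Against d1, 6 of the 25 genes with enough UMIs were called higher at d4 (Itga4, Itga8, Itga9, Itga11, Itgb5, Itgb6) and 1 lower (Lamb3), where 8.32% of all 12217 features tested were called higher and 2.26% lower. At d7, 4 of 25 were higher (Itga4, Itga9, Itgb6, Lama2) and 1 lower (Itgb3), beside 5.21% and 4.12% of 12006 features. At d14, 9 of 24 were higher (Itga4, Itga7, Itga9, Itga10, Itga11, Itgb6, Lama2, Lamb2, Lamc1) and 1 lower (Itgb3), beside 8.73% and 8.51% of 11740 features. The median log2 ratio of the measured genes was 0.56 at d4, 0.48 at d7 and 0.73 at d14, beside 0.21, -0.01 and -0.04 over all features. These 3 comparisons share the d1 section, so their agreement is not independent.

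Between d4 and d14, 3 of 26 genes were higher at d14 (Itgb2, Itgb6, Lamb3) and 2 lower (Itga8, Itgb3), where 5.75% of 12437 features were called higher and 13.0% lower. The median log2 ratio was -0.02, beside -0.27 over all features. With TMM scaling, which sets the bulk of genes equal, 5 were higher and 1 lower and the median was 0.21. The share of all features called with that scaling is not given here.

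**Figure D1:**
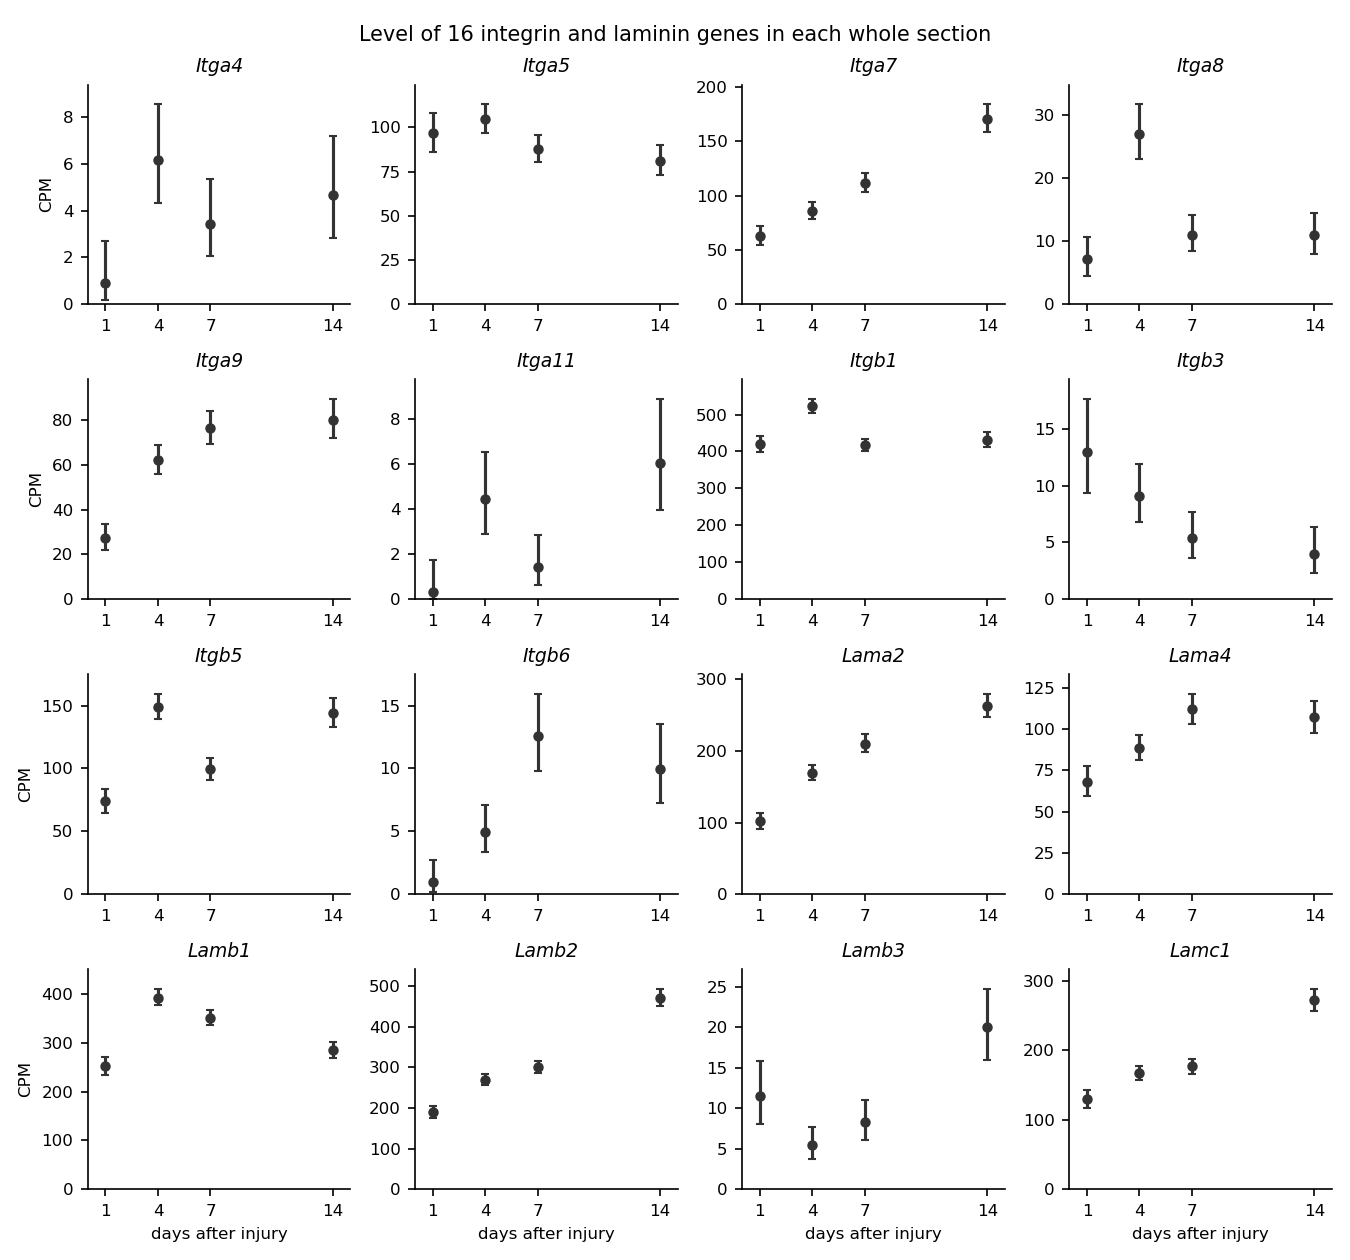
Level (CPM, linear axis from 0) of 16 integrin and laminin genes in each whole section against days after injury; points are pooled levels of 1 section and bars are exact Poisson 95% intervals of the counts. Itga7, Lama2 and Lamb2 are higher at each later section, Itgb3 is lower at each, Itga8 peaks at d4 with 27.0 CPM, and Itgb1 stays between 417 and 522 CPM.

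Among the integrin beta chains, Itgb1, the partner of most alpha chains here, was by far the most abundant, with 420, 522, 417 and 432 CPM. Its levels at d1, d7 and d14 did not separate beyond their counting intervals (d7 to d1 ratio 0.993, 0.928 to 1.06; the direction flips to 1.01 with TMM scaling), and the d4 level was 1.24-fold (1.17 to 1.33) that at d1. Itgb5, a partner of the vitronectin-binding chain Itgav, had 73.8, 149, 99.3 and 144 CPM, and was 2.02-fold (1.75 to 2.34) the d1 level at d4. That call sits at the threshold (log2 ratio 1.01) and was lost without the collagen-rich spots defined below (0.57), with TMM scaling (0.83), with means over spots (0.76) and without spots holding skeletal muscle UMIs (0.97). The level of d14 was 1.95-fold (1.68 to 2.28) that of d1, just short of a call.

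Itgb3, the beta chain that pairs with Itga2b on platelets and with Itgav elsewhere, had 13.0, 9.07, 5.39 and 3.95 CPM in whole sections. Its ratio to d1 was 0.414 (0.250 to 0.677) at d7 and 0.303 (0.162 to 0.544) at d14. Over the same sections Itga2b had 4.96, 7.87, 6.11 and 4.18 CPM and was called in no comparison. The 6 platelet markers summed to 92.4, 38.1, 47.4 and 54.4 CPM. At 0 UMIs were 2 of the 6 at d1 (Gp1ba, Treml1), 4 at d7 (these and Ppbp and Gp9) and Gp1ba at d14. The markers did not move together: of the 3 measured at d4 against d1, Pf4 was called lower and Ppbp higher. Their part in the Itgb3 result was not tested.

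Itgb6, the epithelial chain that pairs with Itgav to bind and activate latent TGF-beta, was nearly absent at d1 and present later. It had 3, 29, 70 and 43 UMIs, which was 0.930, 4.96, 12.6 and 9.99 CPM. The d7 level was 13.5-fold (4.44 to 67.1) the d1 level and the wide interval follows from the 3 UMIs at d1. Itgb2, the leukocyte beta chain, had 5.89, 4.79, 6.11 and 11.2 CPM, and the d14 level was 2.33-fold (1.43 to 3.85) that of d4. The 10 macrophage markers, all detected in each section, summed to 363, 282, 329 and 799 CPM, so they were also highest at d14; their part in the Itgb2 result was not tested. Itgb4, Itgb7 and Itgb8 had 36, 25 and 34 UMIs in all and were called in no comparison; Itgb8 had 0 UMIs at d1, which allows up to 0.930 CPM (3 counts).

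Among the alpha chains, Itga7 was higher in each successive section, with 63.0 CPM (54.6 to 72.2), 86.2 (78.8 to 94.1), 112 (103 to 121) and 171 (159 to 184). None of these 4 intervals overlap, and the d14 level was 2.72-fold (2.33 to 3.20) that of d1. The 10 cardiomyocyte markers summed to 78054, 64982, 79291 and 94127 CPM; their part in the Itga7 result was not tested. In this kind of pooled measurement, fewer cells of a type and less RNA per cell cannot be told apart.

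Itga9, which binds tenascin-C and other matrix ligands, had 27.3, 62.1, 76.3 and 80.1 CPM. Its ratios to d1 of 2.28 (1.80 to 2.91), 2.80 (2.22 to 3.56) and 2.94 (2.32 to 3.75) all passed, and the d7 and d14 intervals overlap. With TMM scaling the d4 log2 ratio was 1.00 after rounding and just missed the call. Itga5, the fibronectin receptor chain, did not follow this pattern, with 96.8, 105, 87.8 and 81.3 CPM, and was the most abundant alpha chain at d1 and d4.

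Itga8, a chain that binds nephronectin and is found on smooth muscle and fibroblasts, stood out at d4. Its levels were 7.13, 27.0, 11.0 and 10.9 CPM, which made d4 3.79-fold (2.44 to 6.15) the d1 level and d14 0.404-fold (0.285 to 0.563) the d4 level. The mural markers (smooth muscle and pericyte genes such as Acta2 and Rgs5) summed to 1207, 1447, 1224 and 1792 CPM, lowest at d1 as Itga8 was, but highest at d14 and not at d4; their part in the Itga8 result was not tested.

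The less abundant alpha chains Itga4, Itga10 and Itga11 were at 1 to 4 UMIs at d1. Itga4, which binds Vcam1 and fibronectin, had 3, 36, 19 and 20 UMIs (0.930, 6.16, 3.41 and 4.65 CPM), and d4 was 6.62-fold (2.09 to 33.6) the d1 level. Itga11, a collagen receptor of fibroblasts, had 1, 26, 8 and 26 UMIs (0.310, 4.45, 1.44 and 6.04 CPM), with ratios to d1 of 14.3 (2.36 to 588) at d4 and 19.5 (3.20 to 798) at d14. Itga10, another collagen-binding chain, had 1.24, 3.59, 3.41 and 5.81 CPM, and d14 was 4.68-fold (1.62 to 18.5) the d1 level. The size of these ratios rests on the few UMIs of d1. Without the collagen-rich spots, Itga4 lost its calls at all 3 later times (log2 ratios 2.28, 1.90 and 2.41) and Itga11 its calls at d4 and d14 (2.36 and 3.51). In each of these the compared groups held under 20 UMIs. The interval of the ratio still excluded 1 for Itga4 at d4 (1.15 to 43.3) and d14 (1.22 to 48.1) and for Itga11 at d14 (1.75 to 478). It held 1 for Itga4 at d7 (0.846 to 34.1) and Itga11 at d4 (0.713 to 225). Without skeletal muscle spots Itga4 also lost its d7 call (1.64).

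Itga1 (44.7, 79.7, 67.9 and 70.6 CPM), a collagen-binding chain, and Itga6 (43.1, 56.6, 49.9 and 48.1 CPM), a laminin-binding chain, were highest at d4 without reaching a call; the order of d14 and d4 flips for Itga1 with TMM scaling. Itga3, another laminin-binding chain, had 19.2, 19.2, 18.7 and 18.4 CPM and its ratio to d1 stayed between 0.954 and 0.996. Itga2 had 46 UMIs in all.

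The laminin alpha chain of muscle, Lama2, had 102, 169, 210 and 263 CPM. The ratio to d1 was 2.06 (1.82 to 2.34) at d7 and 2.58 (2.28 to 2.92) at d14, so each later section stood above the one before it. The d7 value sits near the threshold (log2 ratio 1.04, or 0.94 with CPM over all genes and 1.00 after rounding, without a call, when collagen-rich spots were left out). Lama4, the vessel chain, had 67.9, 88.6, 112 and 107 CPM and Lama5, found in vessels and epithelia, had 42.5, 58.2, 42.4 and 56.9 CPM; neither was called between sections.

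The 2 main beta chains moved apart. Lamb1, a chain of early basement membranes, had 252 CPM (235 to 270), 393 (377 to 410), 352 (337 to 368) and 285 (269 to 301), on this scale highest at d4 and closest to its d1 level at d14. Lamb2, the chain of many mature basement membranes, had 190 CPM (175 to 205), 270 (257 to 284), 301 (287 to 316) and 472 (451 to 493), and d14 was 2.48-fold (2.27 to 2.72) d1. Lamb1 was thus above Lamb2 at d1, d4 and d7, and below it at d14. The third beta chain, Lamb3, a part of epithelial laminin, was low, at 11.5, 5.47, 8.26 and 20 CPM, with a d4 to d1 ratio of 0.477 (0.288 to 0.787) and a d14 to d4 ratio of 3.65 (2.41 to 5.66).

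Lamc1, the gamma chain of nearly all laminins of the heart, had 130, 167, 177 and 272 CPM and was 2.10-fold (1.88 to 2.35) the d1 level at d14.

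**Figure D2:**
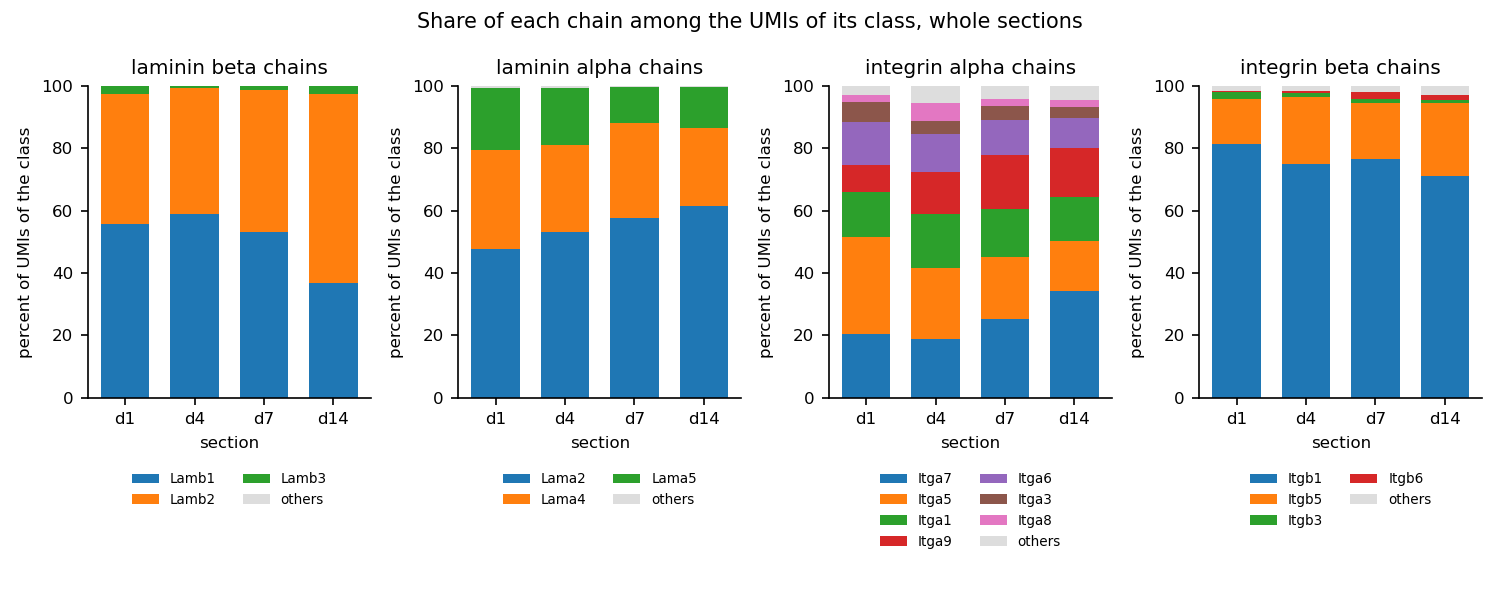
Share (percent) of each chain among the UMIs of its class in each whole section, as stacked bars that add up to 100. Among laminin beta chains Lamb2 goes from 41.9% at d1 to 60.7% at d14; among integrin alpha chains Itga7 goes from 20.3% to 34.1% and Itga5 from 31.2% to 16.2%.

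Shares within a chain class do not depend on the scaling of the sections, and they show the same order. Lamb1 made up 55.6% (53.0 to 58.1) of laminin beta UMIs, then 58.8% (57.3 to 60.4), 53.2% (51.6 to 54.8) and 36.7% (35.1 to 38.4). Lamb2 made up 41.9% (39.3 to 44.5), 40.4% (38.8 to 41.9), 45.5% (43.9 to 47.1) and 60.7% (59.0 to 62.4). The exchange of the leading beta chain thus lies between d7 and d14.

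The exchange was present inside and outside collagen-rich spots. Outside them, Lamb2 was 41.6%, 41.5%, 46.6% and 59.9% of beta UMIs. Inside them it was 44.1%, 33.5%, 35.4% and 65.6%. At d4 and d7 the collagen-rich spots thus had a lower share of Lamb2 than the rest (intervals at d7 30.5 to 40.6 inside and 44.9 to 48.3 outside). At d14 their share was higher, but the intervals overlap (61.1 to 69.9 inside and 58.1 to 61.7 outside). The change of direction between sections was not tested.

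Among the laminin alpha chains, Lama2 had 47.8%, 53.1%, 57.5% and 61.4% of UMIs, Lama4 31.8%, 27.9%, 30.5% and 25.0%, and Lama5 19.9%, 18.3%, 11.6% and 13.3%. Among the integrin alpha chains, Itga7 had 20.3%, 18.7%, 25.3% and 34.1% and Itga5 31.2%, 22.8%, 19.9% and 16.2%, so that Itga7 stood first at d7 and d14. Itgb1 held 81.4%, 75.1%, 76.5% and 71.0% of integrin beta UMIs and Itgb5 14.3%, 21.4%, 18.2% and 23.7%.

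The second question was where in each section these genes were found relative to the collagen transcripts of the healing tissue. Collagen-rich spots were, within each section, the tenth of spots in which Col1a1, Col1a2 and Col3a1 together took the largest part of a spot's UMIs, which gave 44, 66, 77 and 118 spots. None of the 32 genes was used to choose them. The collagen share of the last spot inside was 0.4647%, 0.8735%, 0.7848% and 0.7345%, and that of the first outside 0.4576%, 0.8723%, 0.7750% and 0.7309%. These spots are rich in collagen transcripts, and their place on the tissue was not used.

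The composition of these spots differed from the rest in most marker lists. The 10 cardiomyocyte markers were at 0.702, 0.443, 0.484 and 0.626 of the level outside in order of time, with 0 of the 10 higher inside. The 10 macrophage markers were 5.08-fold, 6.29-fold, 4.19-fold and 2.72-fold higher inside, and the 9 epicardial markers 5.25-fold, 3.66-fold, 1.94-fold and 3.93-fold. The summed 10 mural markers were 1.46-fold, 3.09-fold, 1.38-fold and 1.32-fold higher, with 8, 7, 6 and 7 of the 10 higher inside. Acta2, Myh11, Tagln and Cnn1 were called higher inside at d4 and d7. Called lower were Kcnj8 and Abcc9 at d4 and Rgs5 and Abcc9 at d7. The 10 endothelial markers stood at 1.02, 0.762, 0.840 and 1.06 of the level outside. The 6 platelet markers had summed ratios of 6.59, 3.43, 2.42 and 1.85, with 2, 5, 2 and 4 of the 6 higher inside. The 8 neutrophil markers had 3.11, 0.427, 0.752 and 3.50. The 10 fibroblast markers, which hold the 3 collagens that chose the spots, had 3.95, 4.36, 5.73 and 3.35. The 6 Schwann cell markers had 1.44, 2.50, 5.93 and 3.28, from 16, 66, 71 and 56 UMIs, with 1, 4, 6 and 4 of the 6 higher inside. The 8 lymphocyte markers had 5 UMIs at d1. From d4 on their ratios were 3.27, 1.09 and 2.29, from 48, 33 and 54 UMIs, with 5, 2 and 5 of the 8 higher inside. At d7, 6 genes of skeletal muscle (Mylpf, Tnnt3, Myh3, Myh8, Tnnc2, Tnni2) were 26.6-fold (19.7 to 36.5) higher inside, so d7 ratios of the integrins and laminins named below are also given without the spots that hold such a UMI; the partner genes read last were not. Median UMIs per spot were 6134, 11227, 6450 and 3840 inside and 7949, 7562, 8113 and 3758 outside, and mitochondrially encoded UMIs were 4.58%, 2.34%, 5.64% and 5.26% inside and 5.67%, 5.55%, 12.1% and 8.90% outside. The part of these cell types and of depth in the results below was not tested.

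At d4, 8 of 24 measured integrin and laminin genes were called higher inside (among them Itga4, Itga8, Itga11, Itgb2, Itgb3, Itgb5 and Lama5) and 0 lower, where 10.8% of 11609 features were higher and 6.40% lower. At d14, 6 of 22 were higher (among them Itga4, Itga8, Itga11, Itgb2 and Lama4) and 0 lower, beside 11.0% and 1.61% of 10572 features. At d1, 3 of 18 were higher (among them Itga3 and Itga5) and 1 lower (Lama4), beside 7.63% and 1.87% of 10017 features. At d7, 3 of 21 were higher (Itgb2, Itgb3, Itgb5) and 1 lower (Itgb6), beside 11.9% and 3.14% of 11206 features, so that the d7 share was close to that of all features. The median log2 ratio of the measured genes was 0.42, 0.77, 0.37 and 0.64 in order of time, beside 0.08, 0.08, 0.20 and 0.20 over all features.

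**Figure D3:**
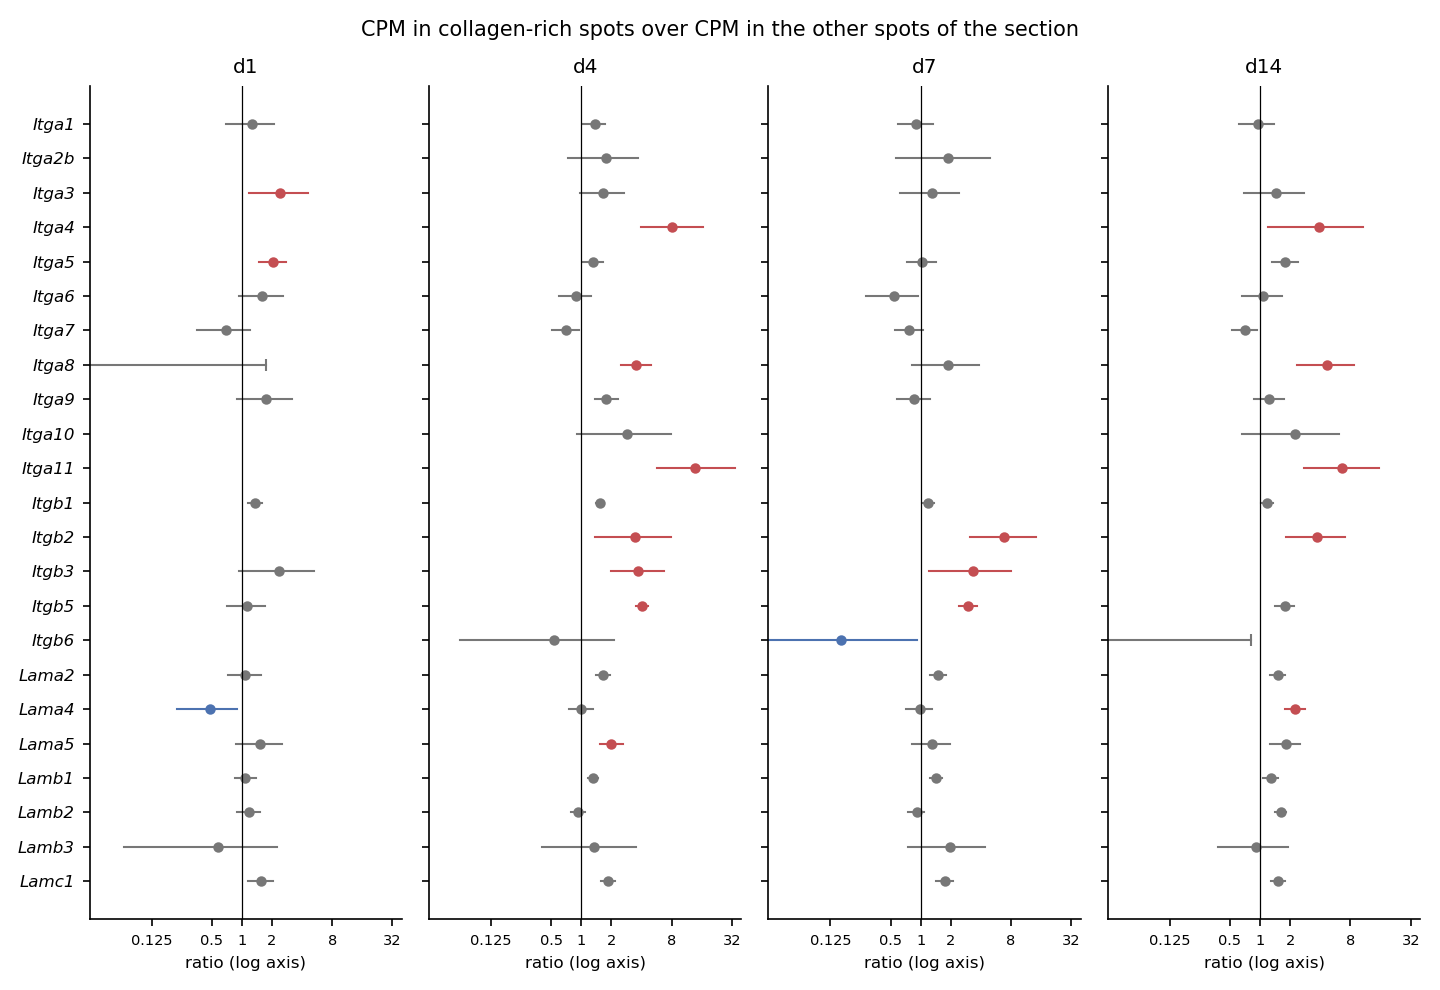
Ratio of CPM in collagen-rich spots to CPM in the other spots of the same section (log axis) for the integrin and laminin genes described here that had at least 20 UMIs in that section; bars are exact conditional binomial 95% intervals, red marks genes called higher, blue genes called lower, grey the others, and a line with an end mark and no point shows the upper limit of a gene with 0 UMIs inside. Itgb5 lies at 4.08 at d4 and Itga11 at 13.6, while Itga7 lies below 1 in all 4 sections.

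Itgb5 was the clearest of the abundant genes. It had 82.3, 441, 255 and 236 CPM inside and 73.0, 108, 85.1 and 134 CPM outside. The ratios were 1.13 (0.707 to 1.72), 4.08 (3.54 to 4.69), 2.99 (2.42 to 3.67) and 1.76 (1.41 to 2.19), and at d1 the direction flips with TMM scaling (0.982). At d7 the ratio was 2.83 (2.20 to 3.59) without spots holding a skeletal muscle UMI. Its partner Itgav, outside the symbol rule, was called higher inside in all 4 sections, by 2.39-fold, 2.95-fold, 3.36-fold and 2.51-fold, with 38.8, 54.1, 45.8 and 42.5 CPM in whole sections.

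The chains Itga4, Itga8 and Itga11, which were low in whole sections, had higher levels inside at d4 and d14. Itga11 had 17 of its 26 UMIs at d4 in the 66 collagen-rich spots, a ratio of 13.6 (5.73 to 34.6), and 11 of 26 at d14, a ratio of 6.57 (2.73 to 15.3). At d7, 5 of its 8 UMIs lay inside, too few for a call. Itga4 had 19 of 36 UMIs inside at d4, a ratio of 8.04 (3.96 to 16.5), and 6 of 20 at d14, a ratio of 3.84 (1.21 to 10.6). The d14 call of Itga4 was lost with TMM scaling (3.08, 0.970 to 8.53), without the skeletal muscle spots (3.39, 0.956 to 9.96) and with the fifth of spots (log2 ratio 0.81 in place of 1.94). Itga8 had 0 of 23 UMIs inside at d1, with an interval of the ratio that reaches 1.75. Later it had 52 of 158 at d4, a ratio of 3.53 (2.48 to 4.96), 9 of 61 at d7 (1.89, 0.818 to 3.87; 2.01, 0.765 to 4.47, without the skeletal muscle spots) and 16 of 47 at d14 (4.63, 2.36 to 8.72).

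Itgb2 and Itgb3 were also denser inside. From d4 on, Itgb2 had 12.6, 27.8 and 32.4 CPM inside and 3.70, 4.12 and 8.78 outside, with ratios of 3.41 (1.36 to 7.90), 6.75 (3.11 to 14.1) and 3.69 (1.83 to 7.06). At d1, 10 of its 19 UMIs were inside, under the UMI minimum. Itgb3 had ratios of 2.37 (0.946 to 5.21) at d1, 3.70 (1.97 to 6.71) at d4 and 3.32 (1.20 to 7.99) at d7, and at d14 11 of its 17 UMIs were inside. The d7 call of Itgb3 was lost with TMM scaling (2.69, 0.973 to 6.46) and with the fifth of spots richest in collagen (log2 ratio 0.50 in place of 1.73), as was the d4 call of Itgb2 with the same spots (1.13 in place of 1.77). Without the skeletal muscle spots, the d7 ratios were 6.38 (2.54 to 14.8) for Itgb2 and 3.52 (1.17 to 8.88) for Itgb3. The lower d14 level of Itgb3 was found outside: there the d14 to d1 ratio was 0.134 (0.0459 to 0.322; log2 ratio -2.90 in place of -1.72), while inside it was 0.928 (0.340 to 2.66), from 11 and 8 UMIs, and the d4 to d1 ratio inside 0.920 (0.381 to 2.44). The difference between inside and outside was not tested. The summed platelet markers given above were also higher inside, though only 2 of the 6 markers were at d1 and d7.

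Itgb1 itself had ratios of 1.36 (1.14 to 1.60), 1.55 (1.41 to 1.70), 1.18 (1.02 to 1.35) and 1.18 (1.02 to 1.36), none past the threshold, and the last 2 turn to 0.952 and 0.945 with TMM scaling. Without the skeletal muscle spots the d7 ratio was 1.17 (0.997 to 1.37).

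The fibronectin receptor chain Itga5 was called inside only at d1, with 182 CPM against 88.3 (2.06, 1.5 to 2.77). That call was lost with TMM scaling (1.79, 1.31 to 2.42), without the skeletal muscle spots (1.97, 1.41 to 2.70), with spots at 3 times the median collagen share (log2 ratio 0.95 in place of 1.04) and with the fifth of spots (0.61). Its ratio was 1.32 (1.05 to 1.64) at d4, 1.03 (0.729 to 1.41; 0.829 with TMM scaling and 0.760 without the skeletal muscle spots) at d7 and 1.78 (1.32 to 2.37) at d14, and the differences between these ratios were not tested. Itga3 was called at d1 as well, with 12 of 62 UMIs inside and a ratio of 2.41 (1.17 to 4.60), and had 1.66, 1.29 and 1.45 later (1.59 at d7 without the skeletal muscle spots). With the fifth of spots its d1 call was lost (log2 ratio 0.74 in place of 1.27).

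Itga7 lay on the other side in each section, and Itga6 and Itgb6 at d7. Itga7 had 44.6, 63.1, 87.7 and 125 CPM inside and 64.8, 89.4, 114 and 177 CPM outside, with ratios of 0.688 (0.360 to 1.21), 0.705 (0.507 to 0.959), 0.770 (0.547 to 1.06) and 0.708 (0.526 to 0.934). All 4 are below 1 and above 0.5, and the cardiomyocyte markers given above were lower inside too. Without the skeletal muscle spots the d7 ratio was 0.825 (0.562 to 1.17). Inside the spots Itga7 was also higher at d14 than at d1, by 2.80-fold (1.51 to 5.60), and outside by 2.73-fold (2.32 to 3.22). Itgb6 had 1 of 70 UMIs inside at d7, a ratio of 0.158 (0.00395 to 0.911), and 0 of 43 at d14. The d7 call of Itgb6 was lost with the fifth of spots (log2 ratio -0.37 in place of -2.66), with spots at 3 times the median collagen share (-2.52), and without the skeletal muscle spots, where it had 0 UMIs inside and a ratio of 0.622 at the floor of 3 counts. Itga6 had a ratio of 0.535 (0.281 to 0.931) at d7, short of a call, which was 0.433 (0.227 to 0.753) with TMM scaling and 0.338 (0.123 to 0.747) without the skeletal muscle spots. In spots rich in cardiomyocyte markers at d7 Itgb6 was 2.19-fold (1.15 to 3.94) the rest. In such spots its ratio was 1.43 (0.277 to 4.67) at d4 and 0.762 (0.151 to 2.39) at d14.

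Among the laminins, most ratios between inside and outside were under the threshold. Lamc1 had ratios of 1.56 (1.15 to 2.07), 1.85 (1.58 to 2.17), 1.73 (1.43 to 2.08) and 1.51 (1.28 to 1.78), below the threshold in each section; without the skeletal muscle spots the d7 ratio was 1.27 (0.991 to 1.61). With these spots left out, the d7 ratio of Lama2 was 1.61, of Lamb1 1.49, of Lamb2 0.941, of Lama4 0.989, of Lama5 1.11 and of Lamb3 2.31 (0.794 to 5.55). Lama2 had ratios of 1.08, 1.64, 1.5 and 1.5 (0.943 with TMM scaling at d1) and Lamb1 of 1.08, 1.31, 1.43 and 1.28 (0.944 with TMM scaling at d1). Lamb2 was at 1.17, 0.932, 0.909 and 1.60, with an interval wholly above 1 at d14 alone (1.41 to 1.80). Lama5 reached 2.0 (1.53 to 2.60) at d4, at the threshold, and lost the call with TMM scaling (1.76, 1.34 to 2.29), with the fifth of spots (log2 ratio 0.96) and with spots at 3 times the median collagen share (0.99). Lamb3 had no call.

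Lama4 was the gene called in opposite directions. It had 34.3, 88.3, 109 and 213 CPM inside and 71.3, 88.6, 112 and 95 CPM outside. The ratios were 0.481 (0.227 to 0.903), 0.996 (0.753 to 1.3), 0.973 (0.716 to 1.3) and 2.24 (1.76 to 2.82). The d1 value rests on 10 UMIs inside, the d1 and d14 calls are each lost under some settings given in the closing section, and the d4 and d7 values turn to 1.03 and 1.02 with CPM over all genes. Inside the collagen-rich spots, the d14 level was 6.21-fold (3.23 to 13.4) the d1 level, and outside 1.33-fold (1.12 to 1.59). The 10 endothelial markers, all detected in each section, were at 1.02 and 1.06 of the outside level at d1 and d14.

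**Figure D4:**
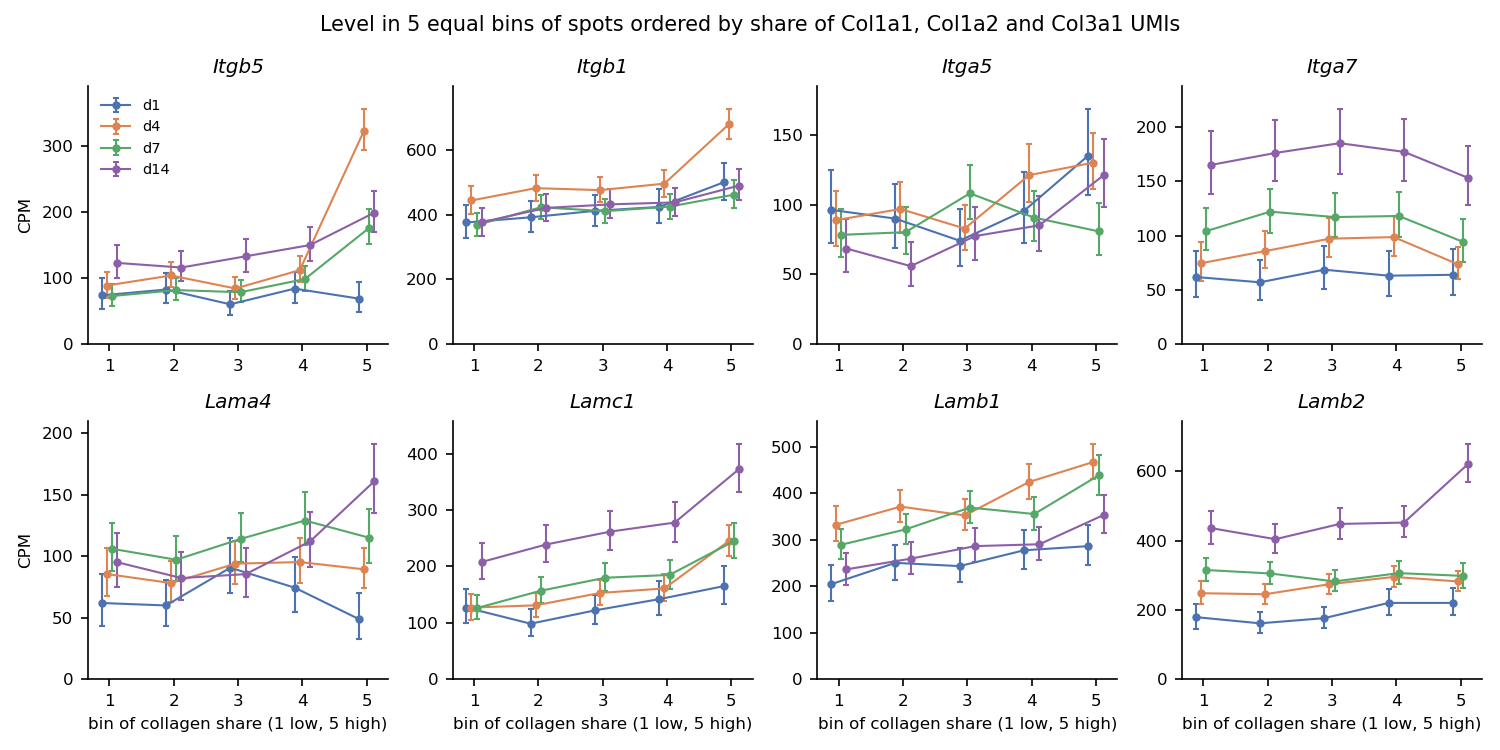
Level (CPM, linear axis from 0) of 8 genes in 5 equal bins of spots ordered by their share of Col1a1, Col1a2 and Col3a1 UMIs, 1 line per section; bars are exact Poisson 95% intervals. Itgb5 at d4 goes from 112 CPM in bin 4 to 323 in bin 5, while Lamc1 at d14 goes up in each step from 208 to 373.

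Ordering all spots of a section in 5 equal bins by collagen share showed whether a gene followed collagen in steps or only at the top. Itgb5 at d4 had 88.8, 104, 84.3, 112 and 323 CPM from the lowest to the highest bin, so that the difference lay in the top bin. At d7 it had 72.9, 81.9, 78.7, 98.6 and 176 CPM. Lamc1 went up in each of the 4 steps at d4 (127, 131, 153, 161 and 245 CPM), at d7 (126, 157, 180, 185 and 245) and at d14 (208, 239, 262, 278 and 373), but not at d1 (127, 98.4, 122, 142 and 165). Itgb1 went up in each step at d1 and d14, and Lama2 and Lamb1 at d14. Neighbouring bins often have overlapping intervals, and no gene of the 32 went down in each step in any section.

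The same genes were read in spots rich in other cell type markers, each the tenth of spots with the largest share of a list. These spots overlap with the collagen-rich ones, so the lists are not separate regions: at d4, 42 of the 66 macrophage-rich and 41 of the 66 mural-rich spots were also collagen-rich, and at d14 53 and 21 of 118. Itgb2, a leukocyte chain, was higher in macrophage-rich spots from d4 on, with ratios of 3.32 (1.27 to 7.88), 6.61 (3.09 to 13.8) and 3.88 (1.93 to 7.43). Itga8 was 2.66-fold (1.81 to 3.83) higher in mural-rich spots at d4 and 6.07-fold (3.17 to 11.3) at d14. Lama5 was 2.36-fold (1.39 to 3.81) higher in mural-rich spots at d1 and 2.57-fold (1.85 to 3.52) at d14. Itgb5 at d4 was higher in macrophage-rich (3.36-fold, 2.89 to 3.90), mural-rich (3.54-fold, 3.05 to 4.09) and epicardial-rich spots (2.24-fold, 1.88 to 2.65). Itga4 at d4 was also higher in all of these, by 5.92-fold (2.80 to 12.1) in epicardial-rich, 4.99-fold (2.36 to 10.2) in mural-rich and 4.16-fold (1.89 to 8.64) in macrophage-rich spots. In fibroblast-rich spots, of which 62 of 66 at d4 were also collagen-rich, Itga8 was 3.89-fold, Itga4 7.08-fold and Itgb5 3.97-fold higher at d4. Itgb2 was 3.93-fold, 6.77-fold and 4.13-fold higher there from d4 on. Itga8 at d14 (4.68, 2.39 to 8.83) and Lama5 at d1 (1.55, 0.886 to 2.55) and d14 (1.51, 1.03 to 2.17) had lower ratios there than in mural-rich spots. These intervals overlap those given above for mural-rich spots. At d4 both had higher ratios in fibroblast-rich than in mural-rich spots (Itga8 3.89 against 2.66, Lama5 2.11 against 1.96), again with overlapping intervals. At d7 Itga8 had 1.89 against 1.79 and Lama5 1.35 against 1.62.

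The partners of these genes were read from 5 further lists. Of all features, 8.32%, 5.21% and 8.73% were called higher and 2.26%, 4.12% and 8.51% lower against d1, and 5.75% and 13.0% at d14 against d4. Inside, 7.63%, 10.8%, 11.9% and 11.0% were called higher and 1.87%, 6.40%, 3.14% and 1.61% lower. Of 12 basement membrane partners, Col15a1, a collagen next to muscle and capillary basement membranes, was the only one called between d1 and later sections, with 87.1, 194, 225 and 367 CPM. Col18a1 and Ntn4, a laminin-binding netrin, were lower at d14 than at d4 (0.481, 0.425 to 0.545, and 0.446, 0.335 to 0.588). Nid1, which joins laminin to type IV collagen, had 116, 167, 171 and 231 CPM, and was higher in collagen-rich spots at d4 (2.26, 1.94 to 2.62) and d7 (2.93, 2.49 to 3.43). The type IV collagen Col4a1 had 899, 1449, 1134 and 1297 CPM and the proteoglycan Hspg2 415, 563, 488 and 630 CPM, with no call between sections. Of the list, 2, 3, 3 and 4 genes were called higher inside in order of time and 0 lower.

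Among 8 other laminin receptors, 1 was called between sections. Sgca, a sarcoglycan of the dystrophin complex, had 65.7, 61.1, 96.3 and 150 CPM, and d14 was 2.28-fold (1.95 to 2.67) d1. It was lower in collagen-rich spots at d4 (0.382, 0.224 to 0.613) and d7 (0.489, 0.307 to 0.742). Dag1, the dystroglycan that binds Lama2, had 246, 235, 237 and 376 CPM and was not called between sections.

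Of 14 integrin ligands other than laminins, 5 were called higher at d4 than at d1 (Vtn, Tnc, Postn, Fbln5, Emilin1) and 1 lower (Spp1), and 2 higher (Vtn, Npnt) and 5 lower (Fn1, Tnc, Postn, Thbs1, Vcam1) at d14 than at d4. Fn1, the ligand of Itga5, had 456, 890, 592 and 264 CPM, and Tnc, a ligand of Itga9, had 23.3, 66.5, 61.8 and 12.3 CPM, whereas Itga9 itself was at 62.1 and 80.1 CPM at d4 and d14. Npnt, the ligand of Itga8, had 0.930, 0.855, 1.26 and 4.88 CPM. Vtn, a ligand of the Itgav and Itgb5 pair, had 2.17, 7.18, 12.4 and 47.9 CPM. In collagen-rich spots 6, 7, 7 and 9 of the measured 9, 9, 9 and 10 ligands were called higher and 0 lower.

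Of 20 adaptors and kinases on the inner side, 1 was called at d4 against d1 (Src), 0 at d7 and 1 at d14 (Lims2), all higher. Lims2, a LIM protein of the ILK complex, had 45.6, 51.7, 72.9 and 237 CPM, a d14 to d1 ratio of 5.20 (4.37 to 6.23), and Itgb1bp2, the muscle protein melusin that binds Itgb1, had 256, 160, 209 and 348 CPM. Zyx, a focal adhesion protein, was higher in collagen-rich spots at d1 (2.12), d4 (2.47) and d7 (2.36). Of the adaptors measured there, 2, 2, 3 and 2 were called higher inside and 1, 2, 0 and 0 lower; the lower ones were Tln2, a talin of striated muscle, at d1 (0.314, 0.134 to 0.629) and d4 (0.450, 0.285 to 0.679), and Itgb1bp2 at d4 (0.388, 0.284 to 0.519). Of the 6 alpha chains outside the symbol rule, 1 was called at d4 and at d7 against d1. This was Itgam, a partner of Itgb2 on neutrophils and macrophages, with 8.37, 1.71, 1.08 and 5.58 CPM. It was lower at both times (ratios 0.204, 0.0882 to 0.435, and 0.129, 0.0434 to 0.318). The 8 neutrophil markers summed to 236, 39.7, 22.3 and 53.0 CPM, with Ly6g at 0 until d7 and Cxcr2 at d14. Of the 4 measured against d1, 4 were called lower at d4 and 3 at d7. Their part in the Itgam result was not tested. Itgam and Itgax were higher at d14 than at d4, as was Itgb2.

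Exons of Itga4, Itga7, Itga8 and Lama2 overlap those of a gene on the other strand in GENCODE vM21 that the matrices also list. The partners had 0 UMIs for Cerkl (Itga4) and Mettl7b (Itga7), 1, 4, 1 and 0 for E030013I19Rik (Itga8), and 0, 0, 0 and 1 for Gm48084 (Lama2). Whether counting used strand is not given in the sources used here. In GRCm38 the genes named most lie as follows: Lamb1 on chromosome 12 from 31265234 to 31329644, Lamb2 on chromosome 9 from 108479736 to 108490530, Lama4 on chromosome 10 from 38965515 to 39110188, Itga7 on chromosome 10 from 128933818 to 128958282, Itgb5 on chromosome 16 from 33829665 to 33949338 and Itga11 on chromosome 9 from 62677826 to 62783982.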

How the data were processed

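Gene counts were read from 4 matrices of raw UMI counts per gene and spot that the authors deposited, and the file headers name Space Ranger 1.3.0. The submitters' processing notes list mm10 as the build, and Seurat 4.1.1 with no role. How the listed spots were picked is not given in the sources used here. Each section's matrix held 3419864 (d1), 6187656 (d4), 6358894 (d7) and 4741982 (d14) UMIs.

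Spots with at least 500 UMIs were kept. UMIs were summed over a section, over its collagen-rich spots and over its other spots, and scaled by a total that leaves out 8 haemoglobin genes and 13 encoded in mitochondria. The 95% intervals are exact Poisson for CPM, Clopper-Pearson for shares and, for ratios, Clopper-Pearson on the split of UMIs between groups, all for counting error alone. In a ratio, a group with 0 UMIs entered at a floor of 3 counts for the call. No test was possible with 1 section per time point, and spots were not treated as replicates. All features were computed and the 32 genes read against them.

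Values in every section are given for genes called in any of 8 comparisons and for the 5 integrin and 5 laminin genes with the most UMIs. Others are given briefly, and some that the counts include are not reported here. The genes, lists and settings were chosen with earlier results of these data known. As alternatives, totals over all genes and TMM factors (edgeR 4.0.16) were tried, as were other spot, UMI and fold thresholds, means over spots, leaving out collagen-rich or skeletal muscle spots, and 3 other rules for the collagen-rich comparison. The sections shared 247 barcodes in all 4, as positions of the same array design. Code was tested on simulated data. Computation used Python 3.11.15, pandas 2.3.3 and scipy 1.17.1.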

Additional observations from a re-analysis of the deposited data

Results flagged for a closer look

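Lama4, the laminin alpha chain of vessels, was called lower in collagen-rich spots at d1 (log2 ratio -1.06) and higher at d14 (log2 ratio 1.16), so the sections lie on opposite sides. The difference between the sections was not tested, since each time has 1 section. The d1 value rests on 10 UMIs inside and loses its call without skeletal muscle spots (-0.99), with the fifth of spots richest in collagen (-0.57) and with spots at 3 times the median collagen share (-0.75). The d14 value loses its call with TMM scaling (0.85) and with the fifth of spots (0.78), and its direction held in every alternative run.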

How the results depend on the processing

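The 49 called values of single genes gave 485 values under the alternatives, of which 485 kept their direction and 425 their call. Part of this was fixed in advance. The limits of 50 UMIs and 1.5-fold leave each ratio as it was, and at 1.5-fold no call can be lost. TMM scaling and CPM over all genes multiply all ratios of a comparison by 1 factor, here too small to reverse a called ratio. The 485 and 425 are therefore not read as a measure of how firm the calls are. Of 240 alternative counts and medians, 31 moved. With TMM scaling the median at d4 against d1 was 0.37 (from 0.56); at d14 against d4, 5 genes were higher and 1 lower and the median was 0.21; in collagen-rich spots 2 were lower at d7 and 3 higher at d14. With at least 50 UMIs per gene, 3 were higher at d4 and 5 at d14 against d1, and 5, 1 and 2 were higher in collagen-rich spots at d4, d7 and d14. At 1.5-fold, 10, 8 and 15 were higher than at d1 in order of time, 7 at d14 than at d4, 5 and 11 in collagen-rich spots at d7 and d14, and 2 and 1 were lower there. Without collagen-rich spots, 3 were higher at d4 and 2 at d7 than at d1, and the d14 against d4 median was 0.13; that median was 0.16 with means over spots and 0.03 without skeletal muscle spots. Means over spots gave 2 lower in collagen-rich spots at d7. With the fifth of spots, 1 was higher at d1 and 3 at d14, and 0 were lower at d1 and d7. The d1 count of lower genes was also 0 at 3 times the median collagen share and without skeletal muscle spots. The share of all features called under each of these settings is not given here, so these counts are not read against it.

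TMM scaling moved the median log2 ratio of all features from 0.21 to 0.02 at d4 against d1 and from -0.27 to -0.05 at d14 against d4, and in collagen-rich spots from 0.08 to -0.12, 0.08 to -0.10, 0.20 to -0.11 and 0.20 to -0.12 in order of time. The share of all calls that were higher went from 78.6% to 63.5% at d4 against d1, from 30.6% to 47.1% at d14 against d4, and in collagen-rich spots from 80.3% to 56.5%, 62.8% to 47.4%, 79.1% to 46.7% and 87.3% to 52.0%. At d7 against d1 it went from 55.8% to 45.5% with CPM over all genes. With TMM scaling Itgb1 in collagen-rich spots turned to 0.952 at d7 and 0.945 at d14.

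No paired analysis was possible because each time has 1 section and the labels carry no replicate numbers, and leaving out a replicate was not possible. Depth limits genes under 20 UMIs in a comparison, most often at d1.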
